A study of Homo sapiens with 36 samples.

Results

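The 40S fraction of a polysome gradient was compared between HUES6 cells carrying a knockout of RBPMS (KO) and HUES6 cells labelled wild type (WT). HUES6 is an established human embryonic stem cell line, grown here in FTDA medium. Of the 36 libraries of the experiment, 6 were 40S libraries, 3 from KO cultures and 3 from WT cultures, and they were found by their titles. All cultures of both genotypes were given cycloheximide at 100 ng/ml for 5 min, which holds ribosomes on their mRNAs, before lysates were separated. RNA was taken up in Trizol, and equal amounts went into stranded poly(A) libraries read as paired 75 nt ends. Their treatment is labelled control throughout. The labels do not say whether the KO cultures came from 1 clone or several, or how RBPMS was disrupted. Nothing in them says that the cultures of a genotype were grown apart, so p-values measure only the spread between these samples.

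In a polysome gradient, particles sediment by size, and the 40S fraction is the one where free small ribosomal subunits run. It holds mRNAs in initiation complexes that have not yet joined a large subunit, together with any other RNA-protein particle of similar size. RBPMS is an RNA-binding protein with a single RNA recognition motif, known as a regulator of splicing in smooth muscle and studied in stem cells for its part in translation. With equal RNA input the values give the make-up of the fraction, so a smaller amount of an RNA cannot be told apart from a larger amount of all others.

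The values were TPM, a length-corrected abundance in which the 223367 listed Ensembl transcripts and 92 ERCC spike-in RNAs of a library sum to 1000000. Sequencing depth cannot be read from TPM and is unknown here. A total of 3478 transcripts had at least 10 TPM in at least 3 of the 6 libraries, and these are the transcripts compared. They took 94.1%, 93.2% and 93.4% of all TPM in KO replicates 1, 2 and 3, against 94.9%, 94.2% and 96.9% in WT. The limit is set by the third highest of the 6 values, which was 10.0012 TPM in ENST00000396386.6, nearest above it, and 9.98514 TPM in ENST00000600528.1, nearest below it. No table used here pairs these IDs with genes. The level of RBPMS, pluripotency markers and other gene lists were therefore not analysed, the knockout and the cell type were taken from the labels, and transcripts are reported by ID without a role or a sequence.

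The 6 libraries did not divide by genotype. Across the 3478 transcripts, KO replicates 1 and 2 correlated at 0.86 (Pearson's r of log2(TPM + 1)) and WT replicates 1 and 2 at 0.94. KO replicate 3 correlated with WT replicates 1 and 2 at 0.86 and 0.87, but with the other KO libraries at 0.23 and 0.38. The library labelled WT replicate 3 correlated with KO replicates 1 and 2 at 0.77 and 0.78, but with the other WT libraries at 0.31 and 0.27. These values share the transcripts they were computed over, which are not independent, and are given as a description.

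The library labelled WT 40S replicate 3 also stood apart from its own culture. It held the fewest transcripts above 0 of the 40S libraries, 38053 against 48971 to 62554 in the others. It correlated with the 80S library of the same culture, the fraction of single whole ribosomes, at 0.37 and with its Input, the unfractionated sample, at 0.033. For the other WT cultures these values were 0.87 and 0.86 for 80S and 0.80 and 0.83 for Input. For KO replicates 1, 2 and 3 they were 0.91, 0.92 and 0.86 for 80S and 0.81, 0.73 and 0.82 for Input. Outside 40S, the library most like WT 40S replicate 3 was KO 80S replicate 1, at 0.75. In 80S itself, WT replicate 3 correlated with the other WT libraries at 0.86 each and with KO replicates 1 and 2 at 0.31 and 0.43, so the crossing of WT replicate 3 was not seen there. In disome these values were 0.75 and 0.81 to WT and 0.50 and 0.55 to KO. WT disome replicates 1 and 2 correlated with the same KO libraries at 0.21 to 0.33. In both polysome fractions WT replicate 3 correlated with the other WT libraries at 0.92 to 0.95 and with KO replicates 1 and 2 at 0.18 to 0.32. KO replicate 3 lay with WT in 80S as well, at 0.91, 0.89 and 0.82 to the 3 WT libraries against 0.24 and 0.38 to the other KO libraries. The same held for KO replicate 3 in Input, at 0.94, 0.96 and 0.94 to the WT libraries against 0.30 and 0.59 to the other KO libraries. In disome, Polysome1 and Polysome2 it correlated with the WT libraries at 0.77 to 0.93 and with the other KO libraries at 0.31 to 0.45. The libraries labelled KO replicate 3 and WT 40S replicate 3 thus lay across from their labels. With RBPMS not measured here, whether any label was exchanged was not tested, and every KO and WT value below follows the labels as given.

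A principal component analysis of the same values gave the same division. The first component held 73.6% of the variance, with scores of 0.48, 0.31 and -0.38 for KO replicates 1 to 3 and -0.41, -0.42 and 0.43 for WT replicates 1 to 3. The second held 14.4%, with scores of 0.16, 0.57 and 0.35 for KO and -0.23, -0.17 and -0.67 for WT. Genotypes overlapped on the first component and did not overlap on the second.

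**Figure D1:**
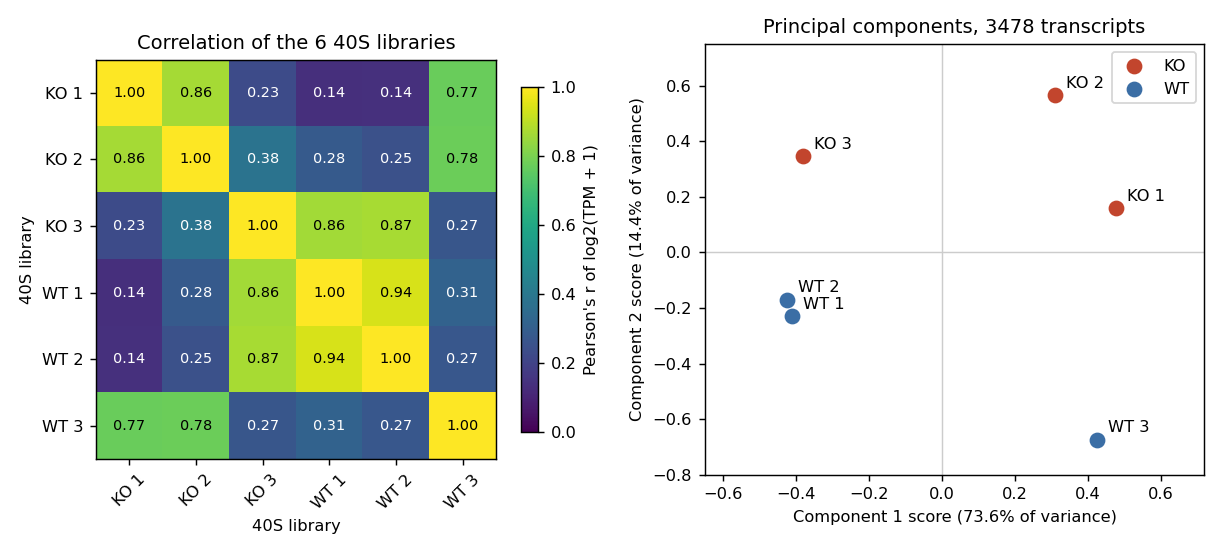
Left, Pearson's r of log2(TPM + 1) between the 6 40S libraries over 3478 transcripts. Right, the scores of the libraries on the first (x) and second (y) principal component, with KO in red and WT in blue. KO replicates 1 and 2 lie with WT replicate 3 on the first component, and the genotypes are apart on the second.

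Which libraries held a transcript showed the same division more directly. Of the 3478 transcripts, 872 reached 10 TPM in all 6 libraries, 561 in 5, 691 in 4 and 1354 in exactly 3. Of the 1354, 717 reached it in KO replicate 3 with WT replicates 1 and 2. Another 318 (23.5%) reached it in KO replicates 1 and 2 with WT replicate 3. The sets that follow genotype were smaller, with 144 transcripts (10.6%) in the 3 KO libraries and 22 (1.62%) in the 3 WT libraries. The 144 had a median of the KO means of 25.7 TPM and a median of the WT means of 4.52 TPM, so most were low rather than missing in WT, and 1 was listed at 0 in all 3 WT libraries. For the 22, the medians were 4.96 TPM in KO and 20.5 TPM in WT.

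**Figure D2:**
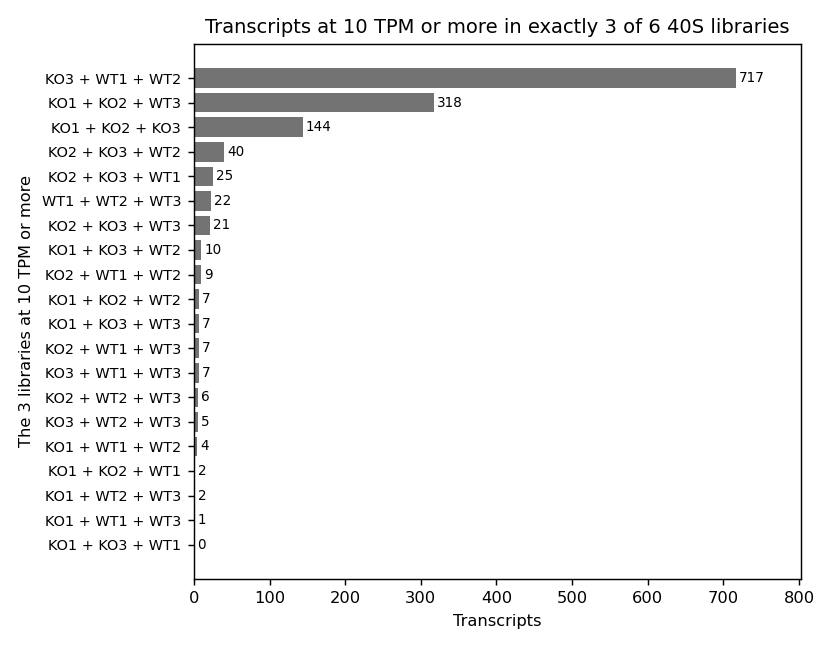
Number of transcripts (x) at 10 TPM or more in exactly 3 of the 6 40S libraries, for each of the possible sets of 3 libraries (y). The sets KO3 + WT1 + WT2 and KO1 + KO2 + WT3 hold 717 and 318 of the 1354, against 144 for the 3 KO libraries and 22 for the 3 WT libraries.

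The spread between WT replicates was wider in 40S than in any other fraction. It takes in the library labelled WT replicate 3, which correlated with WT replicates 1 and 2 at 0.31 and 0.27. WT replicates 1 and 2 correlated with each other at 0.94, and the WT spread without replicate 3 was not computed. The median SD of a transcript between replicates, on the log2 scale, was 1.34 in KO and 1.27 in WT. For the same transcripts in WT it was 0.27 in Input and 0.44 in 80S, and at most 0.52 in the other WT fractions. In KO it was 0.99 to 1.15 in Input, 80S and both polysome fractions, and 1.98 in disome, where it exceeded that in 40S. Transcripts at 10 TPM or more numbered 2932, 3840 and 3948 in KO replicates 1 to 3 and 3112, 3326 and 2198 in WT (exact permutation p = 0.3, two-sided, n = 3 each, where the smallest possible is 0.1). The 10 most abundant transcripts of each library took 59.5%, 33.5% and 39.9% of TPM in KO and 24.6%, 31.2% and 33.0% in WT, without overlap (exact permutation p = 0.1, adjusted 0.133 over 4 library measures). The ERCC spike-ins summed to 3589, 1925 and 2537 TPM in KO and to 380, 876 and 97.8 TPM in WT, again without overlap (exact permutation p = 0.1, adjusted 0.133). The part of this in the results was not tested beyond the scaling to the ERCC total given below.

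The most abundant 40S transcripts followed the division of the libraries more often than the genotype. The transcript of highest mean, ENST00000387347.2, had 285995, 90720 and 42259 TPM in KO replicates 1 to 3, against 36575, 43306 and 27336 TPM in WT. KO replicates 1 and 2 lay above all WT libraries, and KO replicate 3 lay within the WT range. WT replicate 3 was the lowest of all libraries, so this transcript did not follow the division. ENST00000362079.2 had 30806, 31783 and 192789 TPM in KO, against 78528, 129131 and 11405 TPM in WT. It was high in KO replicate 3 and WT replicates 1 and 2, and low in the other 3 libraries. ENST00000387416.2 showed the opposite order, with 35022, 35251 and 1959 TPM in KO, against 6864, 1030 and 141391 TPM in WT, where WT replicate 3 alone held the highest value.

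A further 3 of the 10 were high in KO replicates 1 and 2 and in WT replicate 3. ENST00000387405.1 had 48194, 58253 and 4840 TPM in KO, against 2255, 676 and 19447 TPM in WT. ENST00000387400.1 had 25832, 29695 and 7924 TPM in KO, against 2656, 1157 and 12434 TPM in WT. ENST00000387459.1 had 71149, 10734 and 800 TPM in KO, against 266, 192 and 17166 TPM in WT. In each of the 3, KO replicate 3 was the lowest KO library and WT replicate 3 the highest WT library, and the genotypes overlapped.

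The remaining 4 did not follow that division either. ENST00000361739.1 had 26616, 34693 and 45874 TPM in KO, against 19376, 31648 and 14068 TPM in WT, with overlap. ENST00000387461.2 had 23972, 10984 and 31643 TPM in KO, against 12448, 9136 and 14237 TPM in WT, also with overlap. In the last 2 the genotypes did not overlap. ENST00000361899.2 was higher in every KO library, with 24287, 16865 and 26108 TPM in KO, against 9951, 15181 and 1254 TPM in WT, a log2 difference of 1.94 that became -1.08 after scaling to the ERCC total. ENST00000245458.10 was lower in every KO library, with 991, 7134 and 9184 TPM in KO, against 18322, 16230 and 27186 TPM in WT. None of the 10 passed the test, with log2 differences between -2.32 for ENST00000245458.10 and 3.15 for ENST00000387459.1 (limma adjusted p of 0.5788 and 0.7537).

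**Figure D3:**
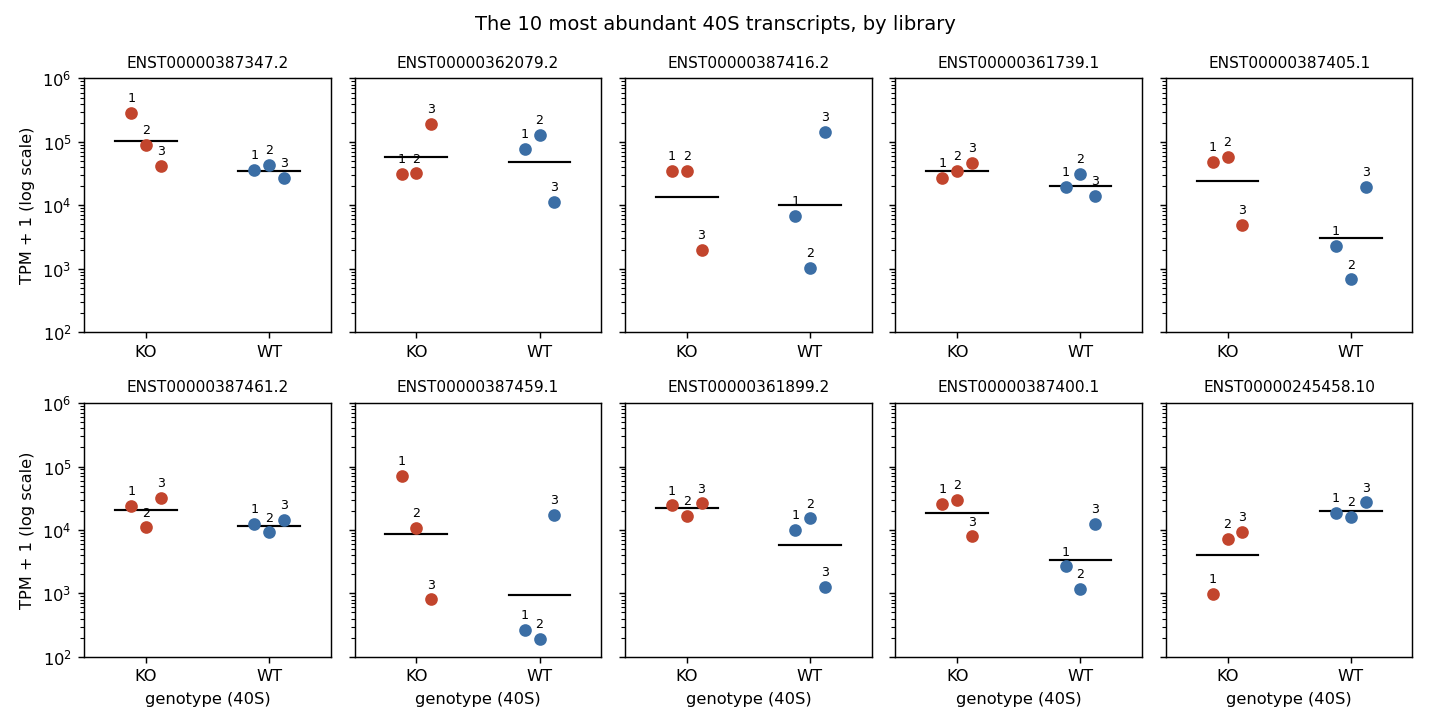
TPM + 1 (y, log scale) of the 10 transcripts with the highest mean over the 6 40S libraries, for KO (left, red) and WT (right, blue). Points are libraries with their replicate number and bars are means on the log scale. KO and WT overlap in 8 of the 10 panels.

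KO was compared with WT over all 3478 transcripts with limma, a linear model that shares information on the spread between transcripts, on log2(TPM + 1) of the 6 libraries. No transcript passed at an adjusted p under 0.05 (Benjamini-Hochberg), and the lowest adjusted p was 0.5778. At an unadjusted p under 0.05 there were 299 transcripts (8.6% of those tested), 250 higher and 49 lower in KO. The median standard error of a log2 difference was 1.07, and 1039 transcripts differed by at least 1 upward and 745 by at least 1 downward. A difference of 1 was thus smaller than the standard error of about every other transcript. The splits of 250 and 49 and of 1039 and 745 are on TPM as deposited and were not recounted under another scaling. The median log2 difference of all 3478 transcripts, 0.17 on that TPM, changed sign with each other scaling. It was -0.10 for median-of-ratios, -0.064 for quantile normalization and -2.35 for the ERCC total, so an excess upward depends on the scaling. When the library labelled WT replicate 3 was left out, no transcript passed either, with a lowest limma adjusted p of 0.0541 and 482 unadjusted p under 0.05. The same held when KO replicate 3 was left out, with a lowest limma adjusted p of 0.2191 and 510 unadjusted p under 0.05.

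A model over all 36 libraries, which borrows the spread of the other fractions, gave a different count. It called 127 transcripts higher in KO 40S (3.65% of those tested) and 21 lower (0.604%). All but 1 of them had no overlap between the 3 KO and 3 WT values. Calls and overlap were read from the same 40S values, so the lack of overlap adds no support. The fit was run on TPM as deposited only, so its split by direction was not checked under another scaling. That fit treats 36 libraries from 6 cultures as independent, with 24 residual degrees of freedom in place of 4. Its estimate of the spread draws on all fractions. WT replicates varied less in the others than in 40S, where WT replicate 3 stood apart, while KO replicates varied more in disome. Of the 4 transcripts named below for their direction, the standard error rose for ENST00000550733.1 (0.91 to 1.37) and ENST00000553444.1 (0.96 to 1.27). It fell for ENST00000514568.2 (0.82 to 0.69) and ENST00000422725.3 (0.70 to 0.53). Why the count differed was not tested.

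Transcripts whose 3 KO values all lay on one side of the 3 WT values were counted as a description that does not depend on the model. There were 547 such transcripts (15.7% of those tested). In 439 (12.6%) KO lay above WT and in 108 (3.11%) below, and this split depended on the scaling: it was 336 above and 313 below after median-of-ratios scaling, 325 and 270 after quantile normalization, and 4 and 1554 after scaling to the ERCC total. Of the 439, 144 reached 10 TPM only in KO, and of the 108, 22 did so only in WT, so these could not overlap once they had passed the limit. Among the 872 transcripts at 10 TPM in all 6 libraries, 115 were above and 45 below. The median log2 difference was 1.95 among the 439 and -1.79 among the 108, against 0.17 over all. Single libraries moved these counts. Leaving out WT replicate 3 gave 785 above and 647 below, and leaving out KO replicate 3 gave 703 and 427. Leaving out KO replicate 1 gave 861 and 115, and leaving out KO replicate 2 gave 459 and 168. A comparison of fewer libraries also makes separation easier to reach.

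**Figure D4:**
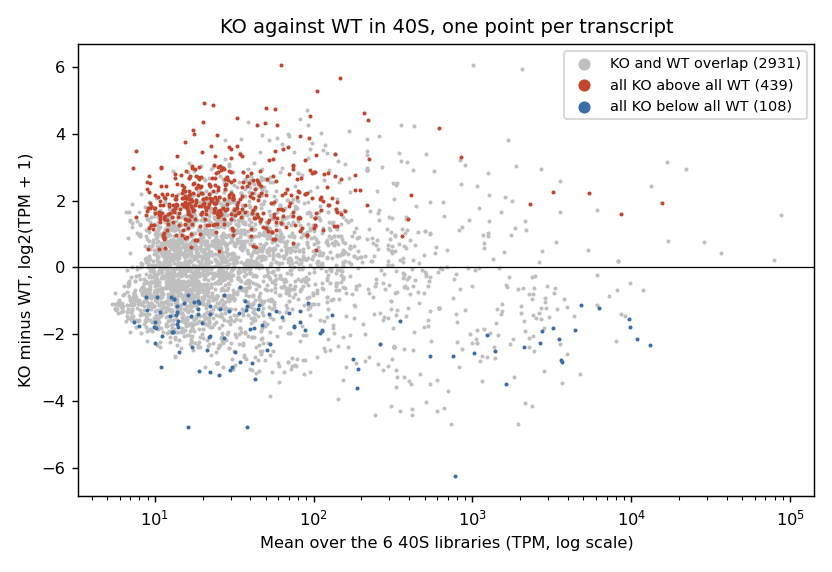
Difference of KO minus WT in mean log2(TPM + 1) (y) against the mean TPM over the 6 40S libraries (x, log scale), 1 point per transcript. The 439 transcripts with all KO values above all WT values are red, the 108 with all KO below all WT are blue and the others grey, on TPM as deposited; after median-of-ratios scaling the counts are 336 and 313.

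The transcripts named for the direction of their difference were the 2 in each direction with the smallest p among those without overlap whose higher genotype averaged 20 TPM or more. There were 378 candidates above and 89 below. ENST00000550733.1 had 89.5, 194 and 86.8 TPM in KO replicates 1 to 3, and was listed at 0, 0 and 4.09 TPM in WT. It was high in all KO libraries and near 0 in all WT libraries, with a log2 difference of 6.07 (SE 0.91, 95% interval 3.94 to 8.20, limma adjusted p = 0.5778). The size of this difference rests on the values at 0: it was 8.37 with a pseudocount of 0.1 and 4.30 with a pseudocount of 5, and 3.61 after scaling to the ERCC total. ENST00000553444.1 had 63.2, 174 and 54.3 TPM in KO, and 4.25 and 4.68 TPM and a listed 0 in WT. Its log2 difference was 4.78 (SE 0.96, 95% interval 2.55 to 7.01, limma adjusted p = 0.5778). The size of this difference also rests on low WT values. It was 6.05 with a pseudocount of 0.1, 3.55 with a pseudocount of 5 and 2.93 after scaling to the ERCC total.

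In the other direction, ENST00000514568.2 had 14.1, 21.9 and 61.8 TPM in KO, against 352, 381 and 290 TPM in WT. All KO values lay far below WT, where the 3 libraries were close to each other, and the log2 difference was -3.61 (SE 0.82, 95% interval -5.51 to -1.70, limma adjusted p = 0.5778). ENST00000422725.3 had 3.40, 5.79 and 7.65 TPM in KO, against 56.0, 69.5 and 36.6 TPM in WT, a log2 difference of -3.06 (SE 0.70, 95% interval -4.70 to -1.43, limma adjusted p = 0.5778). The 4 were chosen for having no overlap and a small p, so their separation is a description. Of the 4, 3 reached 10 TPM in a single genotype only, ENST00000550733.1 and ENST00000553444.1 in KO and ENST00000422725.3 in WT, and ENST00000514568.2 reached it in all 6 libraries.

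**Figure D5:**
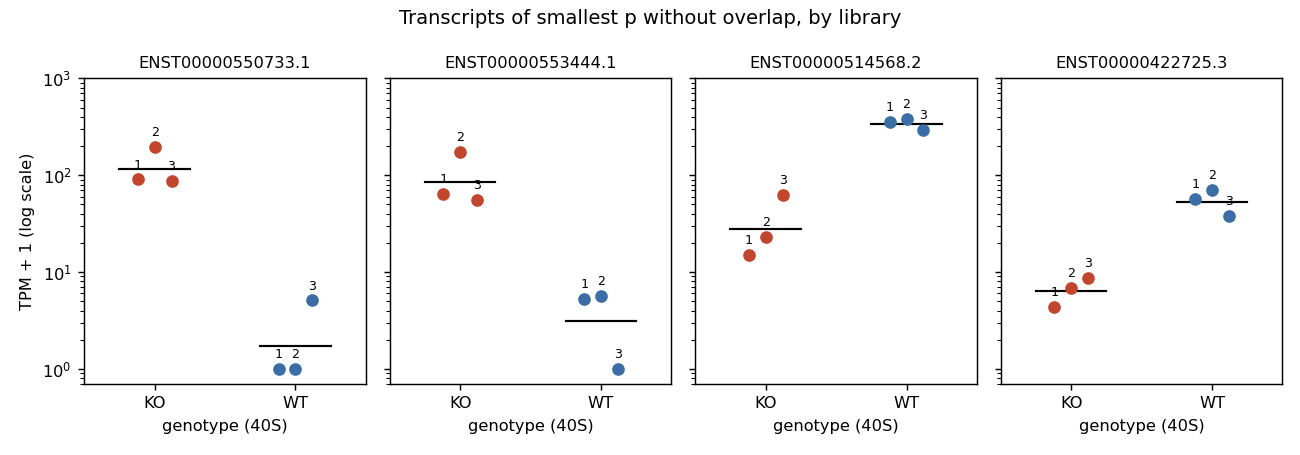
TPM + 1 (y, log scale) in the 40S fraction for the 4 transcripts chosen by smallest p without overlap, for KO (left, red) and WT (right, blue). Points are libraries with their replicate number and bars are means on the log scale. KO lies above WT in the first 2 panels and below WT in the last 2.

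These 4 transcripts were then read in the other fractions. ENST00000514568.2 averaged 41.6 ± 29.0 TPM in KO Input and 120 ± 21.6 TPM in WT Input, and 52.8 ± 42.6 TPM in KO 80S and 145 ± 25.6 TPM in WT 80S (SD, n = 3 each), so it was lower in KO there as well, without overlap. In Polysome2, one of the polysome fractions, it averaged 39.4 ± 12.4 TPM in KO and 33.3 ± 4.68 TPM in WT, with overlap. Its genotypes also overlapped in disome and Polysome1. ENST00000422725.3 was likewise lower in KO 80S, at 16.9 ± 7.68 TPM against 46.6 ± 9.60 TPM in WT 80S, and in KO Input, at 10.8 ± 4.65 TPM against 22.5 ± 2.66 TPM in WT Input, both without overlap. In Polysome2 its order turned, at 29.6 ± 4.61 TPM in KO and 16.1 ± 2.17 TPM in WT without overlap, and in disome and Polysome1 the genotypes overlapped. ENST00000550733.1 overlapped in 80S, with 101, 145 and 31.0 TPM in KO and 12.3, 8.26 and 158 TPM in WT, and in disome. Its KO values lay above its WT values in Input, with 111, 150 and 3.29 TPM in KO and a listed 0, 0.963 and 1.43 TPM in WT, where KO replicate 3 was close to WT. They also did in Polysome1, with 78.9, 119 and 21.6 TPM in KO and 15.9, 4.14 and 3.95 TPM in WT, and in Polysome2, with 71.3, 114 and 5.99 TPM in KO and 0.326, 0.124 and 2.16 TPM in WT. ENST00000553444.1 overlapped in all 5 other fractions, in 80S with 201, 294 and 54.2 TPM in KO and 39.7, 46.8 and 132 TPM in WT. For both of these, WT 80S replicate 3 was the highest WT library.

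The wider set showed how far a difference in 40S went with one in other libraries of the same cultures. Of the 439 transcripts above WT in 40S, 171 (39.0%) also had all KO values above all WT values in 80S, against 11.1% of all 3478. In Input 168 (38.3%) did, against 15.3% of all, and in disome, the fraction of mRNAs carrying a pair of ribosomes, 12 (2.73%) did, against 1.81% of all. Of the 108 below WT in 40S, 57 (52.8%) were also below in 80S, against 19.1% of all, 38 (35.2%) in Input, against 17.7% of all, and 46 (42.6%) in disome, against 21.5% of all. In Polysome1, 152 of the 439 (34.6%) were above and 33 of the 108 (30.6%) below, against 16.5% and 28.2% of all. In Polysome2, 168 of the 439 (38.3%) were above and 30 below, while of the 108 only 14 were below and 32 above, against 21.6% above and 18.6% below among all 3478. Libraries of 1 culture resemble each other, so these counts are not independent of the 40S values.

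The direction of the 40S differences varied with abundance. Among 142 transcripts with a mean of at least 1000 TPM over the 6 libraries, a tier chosen after the values were seen, the median log2 difference was -0.99, against 0.17 over all 3478. Of the 142, 71 were lower by at least 1 on the log2 scale and 29 higher, while over all transcripts 745 were lower and 1039 higher. KO lay below WT without overlap for 18 of the 142 (12.7%), against 3.11% of all 3478. It lay above for 5 (3.52%), against 12.6% of all. These counts are on TPM as deposited and were not repeated for the tier under another scaling. The median level of the 142 was 677, 2103 and 1962 TPM in KO replicates 1 to 3, against 3332, 3006 and 2277 TPM in WT, without overlap. Taken against the median of all 3478 in the same library, the tier stood 5.93 ± 0.35 higher on the log2 scale in KO and 7.30 ± 0.26 higher in WT (SD, n = 3 each). WT replicate 3 was at 7.55 and KO replicate 3 at 5.98, each with its own genotype. As a sum, the 142 held 80.2%, 67.7% and 68.8% of all TPM in KO and 72.9%, 73.0% and 79.7% in WT, with overlap. After quantile normalization, which gives each library the same distribution of values, the median of the tier relative to all transcripts was -0.21 in place of -1.16.

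Transcripts of middle abundance had positive medians. In 5 bins of equal size by mean TPM, the median log2 difference was -0.25 in the lowest bin, 0.13 and 0.41 in the second and the third, 0.50 in the fourth (34.0 to 82.7 TPM) and 0.15 in the highest. The share with all KO above all WT was 8.76%, 15.3%, 15.5%, 14.7% and 8.91% in that order, against 12.6% of all 3478. The share with all KO below all WT was highest in the top bin, at 4.60%, and 2.01% to 3.45% in the others, against 3.11% of all. After median-of-ratios scaling the median of all transcripts was -0.10 in place of 0.17, so the sign of a median this close to 0 depends on the scaling. Over all transcripts, 336 lay above and 313 below after that scaling, in place of 439 and 108. The shares by bin were not recounted.

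Whether the 40S difference went beyond that of the same culture's Input was tested on the difference of 40S minus Input in each culture. Of the 3478 transcripts, 1 passed in this test (0.0288%), ENST00000600794.1, with a log2 shift of -7.93 in KO relative to WT (SE 0.59, limma adjusted p = 0.008575). In 40S it had 1023, 732 and 176 TPM in KO, against 156, 231 and 397 TPM in WT, with overlap. In Input it had 1319, 1148 and 182 TPM in KO and was listed at 0, 0 and 1.09 TPM in WT. The genotypes thus separated in Input, where WT was near 0, and not in 40S. The same WT cultures had 1124, 557 and 798 TPM in 80S and 565, 868 and 353 TPM in Polysome2. The call therefore rests on WT Input values far below those of the gradient fractions, and why they were so low was not tested. KO also lay above WT without overlap in 80S, Polysome1 and Polysome2, and the genotypes overlapped in disome. The limma count was 0 without KO replicate 1, 2 or 3 or WT replicate 1, each left out alone, and 2 without WT replicate 2. Against the 80S library of the same culture, 0 transcripts passed (limma adjusted p of at least 0.2545), with 321 at an unadjusted p under 0.05. Without WT replicate 3, 1 transcript passed in that test.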

How the data were processed

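Per the submitters' processing notes, transcripts were quantified with kallisto and sleuth on build hg19 (versions: not given in the sources). The authors deposited TPM for each transcript, with no replicates pooled. Each library sums to 1000000, so no depth and no counting interval can be had.

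Leaving ERCC rows out, transcripts reaching 10 TPM in 3 or more 40S libraries were kept, and log2(TPM + 1) was fitted with limma 3.58.1 in R 4.3.3 (variance trend, 4 residual degrees of freedom, Benjamini-Hochberg over 3478). A fold on this scale understates changes of low transcripts. Shifts were fitted on 40S minus Input or 80S within each culture. Exact permutation tests (two-sided) were used for 4 library measures. Tables and plots used matplotlib 3.10.9, scipy 1.17.1, pandas 2.3.3, numpy 2.4.6 and Python 3.11.15.

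Named transcripts were the 2 of smallest p in each direction without overlap whose higher genotype averaged 20 TPM or more, and the 10 of highest mean. ENST00000600794.1 was added after its value was seen. The naming table held 59792 genes and 0 Ensembl IDs, so the planned gene sums and gene lists were not run. Among the 3478, 260 transcripts shared all 6 values with another, in 88 sets. Members and tests were chosen with earlier results of these data known. Alternatives covered the libraries fitted, pseudocount, filter, scaling, replicate block and single libraries left out.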

Additional observations from a re-analysis of the deposited data

Results flagged for a closer look

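The ERCC spike-in RNAs, which are outside the transcript comparison, took a larger share of KO than of WT 40S libraries. Their total was 3589, 1925 and 2537 TPM in KO replicates 1 to 3, against 380, 876 and 97.8 TPM in WT, with means of 2683 ± 842 TPM in KO and 451 ± 394 TPM in WT (SD, n = 3 each). All KO values lay above all WT values, the exact permutation p was 0.1 (two-sided, the smallest possible) and the adjusted p was 0.133. Spike-in rows above 0 numbered 54, 56 and 52 of 92 in KO, against 39, 44 and 15 in WT. The labels do not say how spike-ins were added, and their part in the transcript differences was not tested beyond scaling to their total.

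In the main fit, the effect of genotype on ENST00000600794.1 differed between 40S and Input. It had a log2 difference of 1.07 in 40S (SE 0.93, limma adjusted p = 0.8016), and the shift of 40S relative to Input was -7.93 (SE 0.59, limma adjusted p = 0.008575), negative because KO exceeded WT by more in Input. Its WT values were near 0 in Input but not in the gradient fractions, so the size of the shift rests on values near the floor. The call was lost with a pseudocount of 5 (lowest limma adjusted p 0.0747) and with the replicate block (lowest limma adjusted p 0.4005). It was also lost without KO replicate 1, 2 or 3 or WT replicate 1, each left out alone.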

How the results depend on the processing

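In KO against WT, 0 transcripts were called higher and 0 lower under every alternative of pseudocount, filter, scaling, replicate block and library left out (0 to 0 for each direction), but 127 higher and 21 lower with all 36 libraries in the fit. With the first component as a covariate, chosen after seeing the data, 75 were higher and 9 lower; the component comes from the same values, so these p-values are too small. Deviations of same-numbered KO and WT 40S libraries correlated at -0.72, -0.67 and -0.86, which gave no sign of pairing by replicate number. KO replicate 3 and WT replicate 3 left their genotypes in opposite directions on the first component, which by itself makes these values negative. They therefore cannot decide whether same-numbered samples were handled together. With the replicate block 0 were called, and the count at an unadjusted p under 0.05 was 80 in place of 299. The 1 call relative to Input became 3 with all 36 libraries, and 0 with a pseudocount of 5, no filter, the replicate block, or KO replicates 1 and 2 left out together (0 to 2 with single cultures left out). The 0 calls relative to 80S became 1 with a filter of 1 TPM (0 to 1 with single cultures left out). The cause was not tested.

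The 439 transcripts above and 108 below WT became 336 and 313 (median-of-ratios), 325 and 270 (quantile), 4 and 1554 (ERCC scaling), 2145 and 497 (filter of 1 TPM, 14681 transcripts) and 1682 and 296 (KO replicates 1 and 2 left out together). Single libraries left out gave 459 to 861 above and 115 to 647 below. ERCC scaling moved the median log2 difference of all transcripts to -2.35 and turned ENST00000387347.2 to -1.47, ENST00000362079.2 to -2.79, ENST00000387416.2 to -2.60, ENST00000361739.1 to -2.26, ENST00000387405.1 to -0.077, ENST00000387461.2 to -2.24, ENST00000361899.2 to -1.08, ENST00000387400.1 to -0.59 and ENST00000600794.1 to -1.95. ENST00000362079.2 was also -0.054 and -0.24 after median-of-ratios and quantile scaling, and -0.81 to 0.94 with single libraries left out. ENST00000387416.2 was -1.21 to 2.34 with single libraries left out and -1.23 with the first component as a covariate. Without KO replicates 1 and 2 together, ENST00000387416.2 was -2.35, ENST00000387459.1 -0.26 and ENST00000600794.1 -0.46. The 4 transcripts named for their direction kept it in every alternative run. As they were chosen for having no overlap, only another scaling or the first component as a covariate could have turned them. Leaving out single libraries turned no library measure. The unknown depth limits all low values.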
